A study of Mus musculus with 12 samples.

Results

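CP-Dox is doxorubicin bound to a polypeptide carrier, and its effect on tumour gene expression was read here by setting the 4 tumours of mice given CP-Dox against the 4 tumours of mice given phosphate-buffered saline (PBS). These are 8 of the 12 arrays of the series. The other 4 arrays come from mice given free doxorubicin (Dox), and they enter the fit and stand beside the results as a second set of values. All 12393 genes with a probe set of their own were compared, each through the 1 probe set whose signal averaged highest across all 12 arrays.

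The tumours grew from C26, a mouse colon carcinoma line, injected under the skin of the flank of 6-week-old Balb/c mice, which share the strain the line comes from. Treatment with CP-Dox, Dox or PBS was given on day 8 after inoculation, when tumours measured about 50 mm3, and tumours were taken 48 h later, each from its own mouse and onto its own array. The sources used here give no dose. No mice received the carrier alone, so that an effect of the carrier cannot be told apart from one of the drug.

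Doxorubicin slides between the base pairs of DNA and traps topoisomerase II on cut DNA, which leaves double-strand breaks. Breaks activate the transcription factor p53, which switches on genes that hold the cell cycle, limit p53 itself or promote cell death. The drug also reaches lysosomes, where weak bases collect, and mitochondria, and carbonyl reductases are among the enzymes that reduce it. In a whole tumour the measured RNA is a mixture of cancer cells, vessels, stroma and immune cells, and fewer cells of a type cannot be told apart from less RNA per cell.

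Signals are in log2 units, in which 1 unit is a doubling. Differences are given as CP-Dox minus PBS ± the standard error from limma. This error rests on the spread within all 3 groups of 4 tumours, the Dox tumours included. The 4 values of a group are given in the order of replicates 1 to 4. A gene is said to have risen, fallen or changed where its adjusted p over all 12393 genes was under 0.05. The p-values measure the spread between these mice, and with 4 arrays per group the median standard error of a difference was 0.13.

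Several arrays stood apart from their groups. The signals of CP-Dox replicate 2 correlated with those of its group at 0.948 on average, against 0.971 to 0.977 for the other 3 CP-Dox arrays, and arrays within the Dox and PBS groups were at 0.981 to 0.990. Keratinocyte and skin markers (16 measured) had list means of 2.78, 0.16, 4.05 and -0.13 above the PBS mean in the CP-Dox tumours, while the Dox and PBS tumours lay between -0.06 and 0.13. The part of skin RNA in the CP-Dox results was not tested beyond leaving out replicates 1 and 3. Skeletal muscle markers (19 measured) ranged from -0.48 to 1.60 in the CP-Dox tumours and from -2.27 to 1.42 in the Dox tumours. In the PBS tumours their list means were -2.25, -2.37, 3.15 and 1.48, so that PBS replicates 1 and 2 lay apart from 3 and 4. The part of muscle RNA in the results was not tested. Counts are therefore also given without CP-Dox replicate 2, and values without CP-Dox replicates 1 and 3 together.

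The labelled colon origin was checked against 14 epithelial markers. Krt8, a keratin of simple epithelia, lay at 9.17 to 12.05 over the 12 arrays, and its partner Krt18 at 5.74 to 10.33. Some intestinal markers varied far less. The intestinal transcription factors Cdx1 and Cdx2 stayed between 4.01 and 4.43 and between 5.06 and 5.44, villin (Vil1) between 4.24 and 4.62, and Cdh17 between 4.60 and 5.15. Others of the list varied more, Krt20 from 4.49 to 6.56 and Epcam from 5.29 to 7.87. Means of 12 of the 14 markers, at 4.25 to 6.84, lay below the median gene mean of 7.6. Cdx1, Cdx2, Vil1 and Cdh17 were among these, so that their small ranges do not show steady expression. The table holds no detection calls, so that presence of these markers was not tested. Krt18 was highest in CP-Dox replicate 2, at 10.33, against 6.88, 6.07 and 5.74 in the other CP-Dox tumours and 7.32 to 8.75 in the PBS tumours.

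In CP-Dox tumours 691 of 12393 genes changed, which is 5.58% of those tested: 291 rose (2.35%) and 400 fell (3.23%). The changes were mostly modest. The median was 0.61 among the genes that rose and -0.56 among those that fell, and 153 rose and 177 fell by at least 1.5-fold. Changes of at least 4-fold were seen in 9 genes that rose and 2 that fell. For 637 of the 691 genes the values of CP-Dox tumours lay entirely above or below those of PBS tumours, where 12.1% of all genes did (4.31% higher and 7.75% lower). All 4 CP-Dox tumours lay on the called side of the PBS mean for each of the 691 genes. The genes were called on these same tumours, so that neither this nor the lack of overlap is separate support. CP-Dox replicate 2 was the nearest to PBS of the 4 for 148 of the 291 and 210 of the 400. Median distances from the PBS mean were 0.63, 0.50, 0.72 and 0.57 for the genes that rose and -0.62, -0.42, -0.64 and -0.53 for those that fell.

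How many genes passed depended on single tumours. Without CP-Dox replicate 2, 2363 genes passed (19.1%; 1227 higher and 1136 lower), and the 691 were all among them. Without CP-Dox replicates 1 and 3, 2 genes passed (0.0161%), Phgdh and Mtm1. Leaving out any other single CP-Dox or PBS array gave 214 to 543 genes. With each array centred on its median, 216 rose and 503 fell. With the CP-Dox and PBS arrays fitted alone, without the Dox arrays, 198 genes passed (85 higher and 113 lower). A core of 194 genes (1.57%; 67 higher and 127 lower) passed in the whole set and again without each single CP-Dox or PBS array.

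A pair of drug-metabolizing enzymes moved in opposite directions. Ephx1, microsomal epoxide hydrolase, had signals of 11.04, 9.89, 11.71 and 11.05 in CP-Dox tumours, 9.86, 9.09, 9.45 and 9.21 in Dox tumours and 7.31, 7.38, 8.14 and 8.58 in PBS tumours. The 3 groups did not overlap and the Dox tumours lay between the others. The rise was 3.07 ± 0.38 (8.41-fold, adjusted p = 0.00290), and without CP-Dox replicates 1 and 3 the value was 2.62. Cbr2, a carbonyl reductase known as a lung enzyme, had signals of 7.02, 7.35, 7.90 and 6.98 in CP-Dox tumours, 9.86, 9.38, 9.70 and 8.61 in Dox tumours and 9.79, 8.79, 8.79 and 10 in PBS tumours. Here the CP-Dox tumours alone were low, and the Dox and PBS tumours overlapped. Cbr2 fell by 2.03 ± 0.35 (4.09-fold, adjusted p = 0.00902), and it was also lower than in Dox tumours, by -2.07 ± 0.35 (adjusted p = 0.0499). Here and below, calls against Dox rested on single arrays. In limma 0 genes passed when the CP-Dox and Dox arrays were fitted alone.

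These were the only changed members of 21 measured genes of topoisomerases and anthracycline handling (median difference 0.14, against -0.04 over all genes). Each is 4.76% of the list, where 2.35% of all genes rose and 3.23% fell. Topoisomerase genes gave no calls. Top2a, the proliferation-linked target of doxorubicin, had signals of 11.26, 8.96, 11.08 and 11.17 in CP-Dox tumours and 11.11, 11.44, 10.94 and 10.41 in PBS tumours, and it differed by -0.36 ± 0.44 (adjusted p = 0.638). Only CP-Dox replicate 2 was low. The difference of Top2b was 0.01 ± 0.13 (adjusted p = 0.971) and that of Top1 -0.14 ± 0.16 (adjusted p = 0.622).

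Of 21 measured p53 targets of arrest and feedback, 7 rose (33.3%, against 2.35% of all genes) and none fell, with a median of 0.35. The list means were 0.65, 0.43, 0.94 and 0.60 in CP-Dox tumours, 0.54, 0.19, 0.26 and 0.01 in Dox tumours and 0.18, -0.03, -0.12 and -0.03 in PBS tumours, without overlap between CP-Dox and PBS. Cdkn1a, the gene of the cyclin-dependent kinase inhibitor p21, had signals of 11.13, 10.82, 11.61 and 11.42 in CP-Dox tumours, 10.78, 10.64, 10.37 and 10.19 in Dox tumours and 10.18, 10.32, 9.28 and 9.19 in PBS tumours. Each CP-Dox tumour exceeded all the others, and PBS replicates 1 and 2 stood above PBS replicates 3 and 4. Cdkn1a rose by 1.5 ± 0.27 (2.83-fold, adjusted p = 0.0109). The same pair of PBS tumours was high for Mdm2, which marks p53 for degradation, at 8.86 and 8.68 against 7.96 and 8.02, where the CP-Dox tumours had 9.56, 9.45, 9.96 and 9.94. Mdm2 rose by 1.35 ± 0.26 (adjusted p = 0.0157).

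The largest rise of the list was that of Trp53inp1, which promotes p53 activity and autophagy. Its signals were 9.82, 8.54, 10.46 and 9.57 in CP-Dox tumours, 8.77, 8.14, 8.01 and 8.00 in Dox tumours and 7.19, 6.70, 6.95 and 7.52 in PBS tumours, and it rose by 2.51 ± 0.35 (5.68-fold, adjusted p = 0.00419). Its second probe set differed by 1.09. Phlda3, an inhibitor of Akt signalling, had signals of 11.02, 10.17, 11.24 and 10.89 in CP-Dox tumours and 9.70, 9.68, 9.63 and 9.88 in PBS tumours, and rose by 1.11 ± 0.20 (adjusted p = 0.0109). CP-Dox replicate 2 was the lowest CP-Dox tumour for both. The opposite held for Zmat3, which encodes an RNA-binding protein, with 10.02 in CP-Dox replicate 2 and 9.22, 9.66 and 9.31 in the others against 7.93 to 8.52 in PBS tumours. Sesn2, a stress-responsive inhibitor of the kinase complex mTORC1, rose by 0.80 ± 0.16 (adjusted p = 0.0179).

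Of 14 measured p53 targets that promote cell death, 2 rose (14.3%, against 2.35% of all genes), with a median of 0.54. Without CP-Dox replicate 2, 10 rose, where 9.9% of all genes did. List means were 0.89, -0.02, 1.07 and 0.62 in CP-Dox tumours and -0.08 to 0.04 in PBS tumours, with CP-Dox replicate 2 inside the PBS range. Pmaip1, which encodes Noxa, an antagonist of Mcl1, had signals of 8.68, 7.55, 8.24 and 8.05 in CP-Dox tumours, 6.23, 5.97, 6.17 and 6.72 in Dox tumours and 6.67, 6.46, 5.94 and 6.12 in PBS tumours. The Dox and PBS tumours overlapped and the CP-Dox tumours stood above both. Pmaip1 rose by 1.83 ± 0.24 against PBS (3.55-fold, adjusted p = 0.00376) and was higher than in Dox tumours by 1.86 ± 0.24 (adjusted p = 0.0237). The other riser was Aen, a nuclease gene, at 0.55 ± 0.10. Among 22 measured Bcl2 and caspase family genes the 1 change was that of Bok, a pore-forming member of the family, which fell by 0.77 ± 0.17 (adjusted p = 0.0274). This is 4.55% of the list, near the 3.23% of all genes that fell. Bcl2l11, which encodes Bim, stood at 0.66 ± 0.18 (adjusted p = 0.0565) with all arrays and at 0.83 without CP-Dox replicate 2 (adjusted p = 0.00446).

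**Figure D1:**
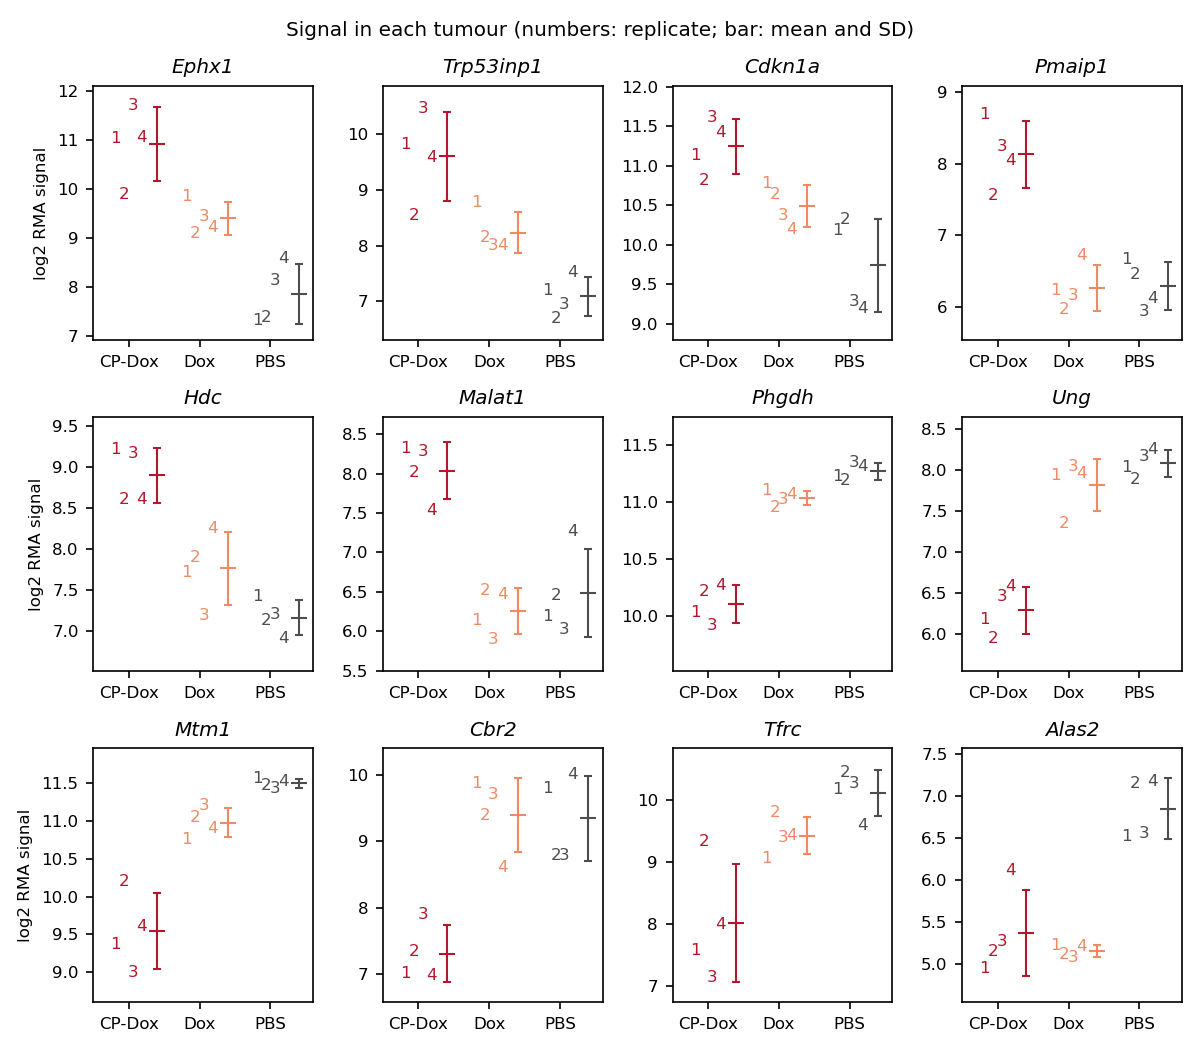
Log2 signal of 12 genes in each tumour, with CP-Dox at the left, Dox in the middle and PBS at the right of each panel, digits for replicates and a bar for the mean and SD of 4 tumours. Pmaip1, Malat1, Ung and Cbr2 set the CP-Dox tumours apart from both other groups, Ephx1 shows Dox between CP-Dox and PBS, and Alas2 shows Dox tumours as low as CP-Dox tumours.

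Serine and folate one-carbon metabolism had the largest share of falling members of any list with a change. Cells make serine from a glycolysis intermediate through Phgdh, Psat1 and Psph, and Shmt1 or Shmt2 then pass 1 of its carbons to folate for the synthesis of purines and thymidylate. Of 15 measured members 9 fell and 2 rose, with a median of -0.61. Without CP-Dox replicate 2 the counts were again 9 and 2, where 9.17% of all genes fell and 9.9% rose. The list means were -0.53, -0.22, -0.58 and -0.44 in CP-Dox tumours, -0.02, -0.01, -0.05 and 0.00 in Dox tumours and 0.01, 0.01, 0.12 and -0.15 in PBS tumours. CP-Dox and PBS did not overlap, and the Dox tumours lay with PBS.

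Phgdh had the lowest p of all 12393 genes. Its signals were 10.03, 10.22, 9.92 and 10.27 in CP-Dox tumours, 11.10, 10.95, 11.02 and 11.06 in Dox tumours and 11.22, 11.19, 11.34 and 11.31 in PBS tumours. The spread within each group was small and the groups did not overlap. Phgdh fell by 1.15 ± 0.09 (2.22-fold, adjusted p = 0.000409), its other 3 probe sets had the same sign, and it was lower than in Dox tumours by -0.92 ± 0.09 (adjusted p = 0.00433). The mitochondrial serine hydroxymethyltransferase Shmt2 had signals of 9.88, 10.37, 9.69 and 10.10 in CP-Dox tumours, 10.99, 11.26, 10.91 and 10.94 in Dox tumours and 11.19, 11.46, 11.38 and 10.76 in PBS tumours. It fell by 1.19 ± 0.17 (adjusted p = 0.00483) and was lower than in Dox tumours by -1.02 ± 0.17 (adjusted p = 0.0499).

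The other falling members are named to complete the pathway, some of them chosen after their values were seen. Mthfd2, which works beside Shmt2 in mitochondria, had signals of 8.13, 9.13, 7.83 and 8.24 in CP-Dox tumours and 9.78, 9.58, 9.63 and 9.14 in PBS tumours, and fell by 1.20 ± 0.25 (adjusted p = 0.0225). CP-Dox replicate 2 lay just under the lowest PBS tumour. The cytosolic Shmt1 fell by 1.10 ± 0.21, Mthfd1 by 0.61 ± 0.13, Psat1 by 1.0 ± 0.24 and Psph by 0.64 ± 0.16. Psat1 and Psph overlapped with PBS through CP-Dox replicate 2, at 11.80 and 9.67. Slc19a1, the reduced folate carrier, fell by 0.75 ± 0.13, and Fpgs, which traps folates in the cell, by 0.53 ± 0.13.

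The members that rose act on formyl-folate and on glycine. Aldh1l1, which oxidizes formyl-folate, had signals of 6.15, 5.83, 6.36 and 6.07 in CP-Dox tumours, 5.41, 5.44, 5.54 and 5.62 in Dox tumours and 4.98, 5.27, 5.06 and 5.04 in PBS tumours. The 3 groups were ordered without overlap, and the rise was 1.02 ± 0.11 (adjusted p = 0.00259). Its second probe set, with the lower mean, showed a difference of 0.00. Gldc, which cleaves glycine, rose by 1.17 ± 0.28 (adjusted p = 0.0368) and overlapped with PBS. Ahcy, which clears S-adenosylhomocysteine after methyl transfer and belongs to no list, had signals of 10.91, 11.32, 11.02 and 10.93 in CP-Dox tumours and 11.95, 11.89, 11.95 and 11.98 in PBS tumours, and fell by 0.90 ± 0.10 (adjusted p = 0.00259).

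**Figure D2:**
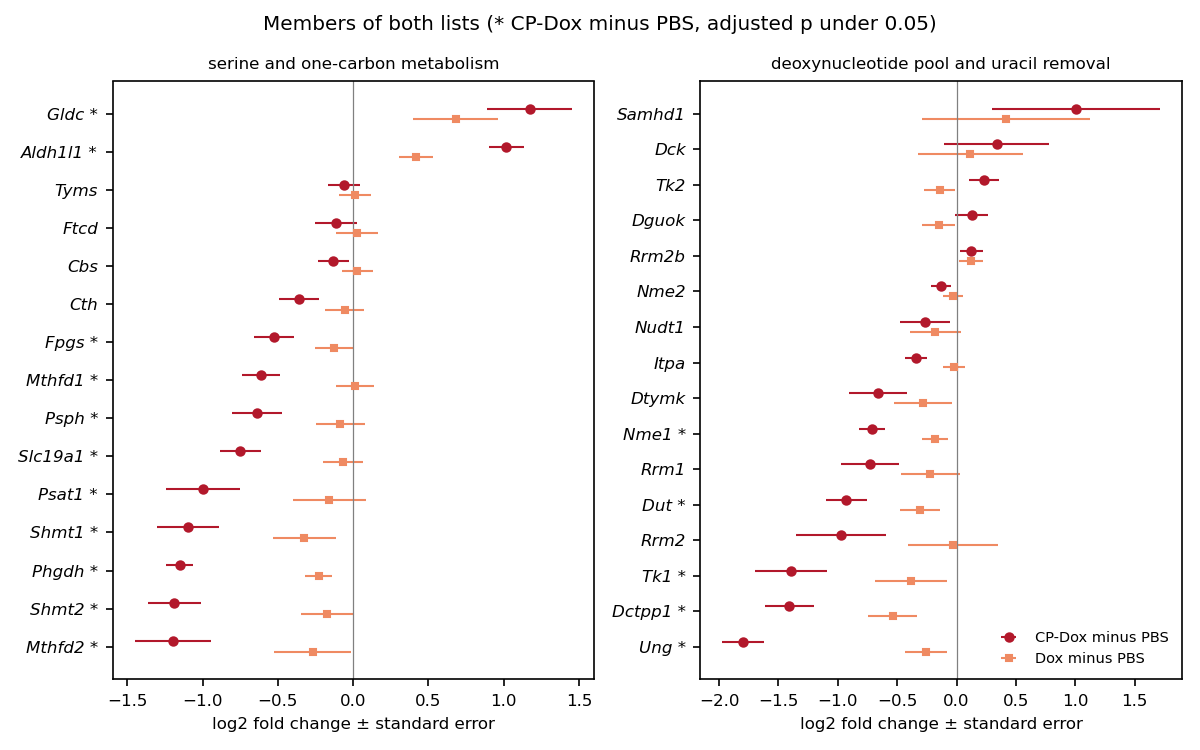
Log2 fold changes with standard errors of the 15 measured serine and one-carbon genes (left) and the 16 measured deoxynucleotide and uracil-removal genes (right), circles for CP-Dox minus PBS and squares for Dox minus PBS, which share the PBS tumours. Circles of Phgdh, Shmt2, Ung and Dctpp1 lie beyond -1 while their squares lie nearer to 0.

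Genes of nucleotide supply fell at several steps. Of 16 measured genes that balance deoxynucleotides or remove uracil from DNA, 5 fell and none rose (31.2% against 3.23% of all genes), with a median of -0.50. Ung, the glycosylase that cuts uracil out of DNA, had signals of 6.17, 5.94, 6.45 and 6.58 in CP-Dox tumours, 7.93, 7.35, 8.05 and 7.96 in Dox tumours and 8.03, 7.88, 8.17 and 8.25 in PBS tumours. All CP-Dox tumours lay well below every other tumour. Ung fell by 1.80 ± 0.18 (3.47-fold, adjusted p = 0.00237) and was lower than in Dox tumours by -1.54 ± 0.18 (adjusted p = 0.0117). Dctpp1, a pyrophosphatase that clears deoxycytidine triphosphate and its modified forms, had signals of 8.71, 8.73, 8.95 and 9.0 in CP-Dox tumours and 10.02, 9.79, 10.36 and 10.86 in PBS tumours. It fell by 1.41 ± 0.21 (adjusted p = 0.00497).

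Thymidine kinase 1 (Tk1), which salvages thymidine in S phase, had signals of 9.48, 8.45, 9.43 and 9.81 in CP-Dox tumours and 10.72, 10.54, 10.45 and 11.04 in PBS tumours, lowest in CP-Dox replicate 2. Tk1 fell by 1.39 ± 0.30 (adjusted p = 0.0248). Dut, which breaks down dUTP before it can enter DNA, fell by 0.93 ± 0.17, Nme1, a nucleoside diphosphate kinase, by 0.71 ± 0.11, and Dnph1, which cleaves deoxynucleoside monophosphates and belongs to no list, by 1.22 ± 0.16. CP-Dox list means were -0.34, -1.05, -0.27 and -0.21, lowest in replicate 2, and PBS list means ran from -0.07 to 0.14. In the synthesis of purine and pyrimidine rings, 5 of 16 measured genes fell (31.2%) and 1 rose (6.25%), with a median of -0.32. Over all genes 3.23% fell and 2.35% rose. Prps1, which makes the ribose donor, fell by 0.56 ± 0.08 and Adsl, a purine enzyme, by 0.57 ± 0.09, while Ctps2, which makes cytidine triphosphate, rose by 0.48 ± 0.07 (9.43, 9.31, 9.52 and 9.43 in CP-Dox tumours against 8.95, 8.94, 8.92 and 8.94 in PBS tumours). The second probe set of Ctps2 was at 0.05.

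All 36 measured DNA replication genes were lower on average in CP-Dox tumours. Of them 6 fell (16.7%, against 3.23% of all genes), and 18 lay lower without overlap between groups, where 7.75% of all genes did. The median was -0.59 with all arrays and -0.81 without CP-Dox replicates 1 and 3. Without CP-Dox replicate 2, 11 fell, where 9.17% of all genes did. The list mean of that tumour, -1.31, lay under those of replicates 1, 3 and 4, at -0.37 to -0.33. Pold2, a subunit of DNA polymerase delta, had signals of 9.40, 9.34, 9.41 and 9.48 in CP-Dox tumours, 10.01, 9.55, 10.08 and 9.95 in Dox tumours and 10.22, 10.23, 10.26 and 10.37 in PBS tumours. It fell by 0.86 ± 0.11 (adjusted p = 0.00338), with little spread inside either group. Orc6, a subunit of the origin recognition complex, fell by 0.78 ± 0.13, Pole2, of DNA polymerase epsilon, by 0.72 ± 0.12, and Orc2 by 0.42 ± 0.09.

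Regulators of entry into S phase changed in both directions. Of 24 measured genes of the G1 cyclins, their kinases, inhibitors and the RB and E2F families, 6 fell (25.0%) and 3 rose (12.5%). The median was -0.24, and over all genes 3.23% fell and 2.35% rose. Cyclin E2 (Ccne2), the partner of Cdk2, had signals of 7.15, 6.06, 7.23 and 7.22 in CP-Dox tumours and 8.29, 8.11, 8.62 and 9.40 in PBS tumours, and fell by 1.69 ± 0.33 (adjusted p = 0.0167). Ccne1 fell by 0.78 ± 0.14, Cdk4 by 0.64 ± 0.08 and E2f8, a repressor of the E2F family, by 1.03 ± 0.20. The members that rose were Ccnd2, at 0.65 ± 0.14, Cdk6, at 0.87 ± 0.22, and Rbl2, which encodes the pocket protein p130 of resting cells, at 0.50 ± 0.12. These 3 were named after their values were seen. Cdk6 had signals of 7.16, 6.72, 6.18 and 6.33 in CP-Dox tumours, 5.12, 5.33, 5.32 and 5.74 in Dox tumours and 6.04, 5.86, 5.32 and 5.68 in PBS tumours, and its difference from Dox was 1.22 (adjusted p = 0.0549).

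Outside the lists, the cell cycle genes Mybl2 and Cdca7 were among the 15 largest falls. Mybl2, a transcription factor of S phase and G2 genes, had signals of 6.16, 5.52, 6.05 and 6.32 in CP-Dox tumours and 7.11, 7.53, 7.23 and 7.05 in PBS tumours, and fell by 1.22 ± 0.20 (adjusted p = 0.00702). Cdca7, an activator of a chromatin remodelling enzyme in DNA methylation, had signals of 8.06, 7.85, 7.98 and 8.38 in CP-Dox tumours, 8.95, 8.77, 9.01 and 9.13 in Dox tumours and 8.98, 9.55, 9.38 and 9.25 in PBS tumours. It fell by 1.22 ± 0.14 (adjusted p = 0.00259) and was lower than in Dox tumours by -0.90 (adjusted p = 0.0437). Of the later phases, 3 of 32 measured genes of G2/M and mitosis fell (9.38%, against 3.23% of all genes), with a median of -0.51. The cyclin A2 gene Ccna2 fell by 1.08 ± 0.21, the spindle midzone kinesin Kif23 by 0.98 ± 0.22 and the transcription factor Foxm1 by 0.85 ± 0.22. The list mean of CP-Dox replicate 2 was -1.54, and those of replicates 1, 3 and 4 were -0.15, -0.26 and -0.13, while PBS replicate 4 was at -0.19. Mki67 differed by -0.72 ± 0.34 (adjusted p = 0.231), with 7.78 in CP-Dox replicate 2 and 9.27 to 9.73 in the other CP-Dox tumours.

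Of 32 measured DNA repair and checkpoint genes, 5 fell (15.6%, against 3.23% of all genes) and none rose, with a median of -0.21. H2ax, the histone variant phosphorylated at breaks, had signals of 9.85, 9.44, 9.70 and 10.09 in CP-Dox tumours, 10.68, 10.44, 10.67 and 10.71 in Dox tumours and 10.99, 10.95, 10.91 and 10.73 in PBS tumours, and fell by 1.12 ± 0.13 (adjusted p = 0.00259). The Ku70 gene Xrcc6, whose product binds DNA ends, varied little among the CP-Dox tumours, at 8.28, 8.32, 8.25 and 8.29, against 8.97, 8.67, 9.0 and 8.80 in Dox tumours and 9.02, 9.01, 9.09 and 8.95 in PBS tumours. Xrcc6 fell by 0.73 ± 0.08 (adjusted p = 0.00259). H2ax was also lower than in Dox tumours by -0.86 (adjusted p = 0.0413) and Xrcc6 by -0.57 (adjusted p = 0.0392). Apex1, a base excision repair endonuclease at sites without a base, fell by 0.73 ± 0.11. Among 23 measured genes of DNA methylation and chromatin assembly 6 fell (median -0.35), among them the histone chaperone gene Nap1l1 by 0.58 ± 0.09 and the chromatin protein gene Hmgb3 by 0.92 ± 0.18.

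Promoters of falling genes were searched for the E2F motif, in which E2F proteins bind genes of S phase (TTTNGCGC or TTTNCCGC on either strand). The windows, taken from RefSeq on the mouse build GRCm38.p6, run from 250 bases before to 50 after the first transcription start of a gene, and 9887 of the 12393 genes had one. The motif stood in 11.7% of the windows of the genes that fell (39 of 333), in 4.72% of those of the genes that rose and in 5.33% of all windows. Within the replication list it stood in 11 of 30 windows (36.7%), but in 1 of the 6 windows of the members that fell (16.7%). The same windows were also searched for the lysosome motifs given below, for CCAAT and for the ATF4-CEBP motif TGATGCAA. CCAAT stood in 44.7% of windows of the genes that fell, 39.5% of those that rose and 38.3% of all windows. For TGATGCAA the shares were 0.3%, 0.0% and 0.718%. All these shares are descriptions without a test. The sequences below are shown because each comes from a falling gene and holds the E2F motif. The falls of Cdca7 and Xrcc6 are given above, and that of Cdk2, named for its promoter, after the sequences. The motif is printed in capitals within 100 bases read 5′ to 3′ along the gene's strand.
Cdca7 (chr2:72476098-72476197, plus strand): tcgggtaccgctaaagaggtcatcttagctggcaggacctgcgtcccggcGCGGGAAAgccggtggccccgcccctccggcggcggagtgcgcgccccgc
Xrcc6 (chr15:82016273-82016372, plus strand): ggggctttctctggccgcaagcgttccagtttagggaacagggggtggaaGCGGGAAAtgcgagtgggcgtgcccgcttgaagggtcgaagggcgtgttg
Cdk2 (chr10:128705142-128705241, minus strand): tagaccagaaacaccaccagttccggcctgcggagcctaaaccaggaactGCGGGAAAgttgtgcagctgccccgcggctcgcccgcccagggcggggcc
In all of these the motif reads GCGGGAAA, the other strand of the second form, and it starts 71 bases before the transcription start of Cdca7, 46 before that of Xrcc6 and 140 before that of Cdk2. Cdk2, the kinase partner of cyclin E, fell by 0.53 ± 0.12.

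Genes of the RNA-making and RNA-handling machinery fell in large numbers and by small amounts. All 44 measured ribosome biogenesis and nucleolar genes were lower on average, 19 fell (43.2%, against 3.23% of all genes), and the median was -0.47. Without CP-Dox replicate 2, 31 fell, where 9.17% of all genes did, and 9 of the 19 passed without each single array. List means were -0.47, -0.21, -0.61 and -0.48 in CP-Dox tumours and 0.02, 0.08, 0.15 and -0.24 in PBS tumours, which overlapped through CP-Dox replicate 2 and PBS replicate 4. Lyar, a nucleolar protein gene, had signals of 9.54, 9.81, 9.29 and 9.47 in CP-Dox tumours, 10.19, 10.40, 10.33 and 10.32 in Dox tumours and 10.48, 10.27, 10.73 and 10.37 in PBS tumours. CP-Dox tumours were lowest and Dox and PBS tumours overlapped. Lyar fell by 0.94 ± 0.12 (adjusted p = 0.00376) and was lower than in Dox tumours by -0.78 (adjusted p = 0.0437), as was Nhp2, a component of small nucleolar ribonucleoproteins (-0.61, adjusted p = 0.0472), which fell by 0.68 ± 0.10 against PBS. Wdr12, of the large-subunit assembly pathway, fell by 0.68 ± 0.10 and Rrp9 by 0.52 ± 0.07. Of 34 measured proteins of the finished cytosolic ribosome, 0 passed in limma (3 at an unadjusted p under 0.05), and their median was -0.06.

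Splicing factors and hnRNP proteins gave 15 falls among 48 measured genes (31.2%, against 3.23% of all genes), with a median of -0.34. Without overlap between groups 21 lay lower, where 7.75% of all genes did. Snrpa1, a protein of the U2 particle, had signals of 9.35, 9.22, 9.13 and 9.51 in CP-Dox tumours, 10.05, 10.06, 10.15 and 10.24 in Dox tumours and 10.13, 9.91, 10.14 and 9.95 in PBS tumours. It fell by 0.73 ± 0.10 (adjusted p = 0.00406) and was lower than in Dox tumours by -0.82 ± 0.10 (adjusted p = 0.0140), while the Dox value exceeded PBS by 0.09. Snrpb fell by 0.46 ± 0.08, Snrpg by 0.44 ± 0.08 and Srsf1, a splicing activator with 5 further probe sets of the same sign, by 0.69 ± 0.13. Of 33 measured genes of the nuclear pore and of nuclear transport 10 fell (30.3%, against 3.23% of all genes), with a median of -0.37. Rcc1, the exchange factor that charges Ran, had signals of 8.04, 8.43, 7.92 and 8.32 in CP-Dox tumours and 9.19, 9.38, 9.31 and 9.12 in PBS tumours, and fell by 1.07 ± 0.12 (adjusted p = 0.00259). Ran itself fell by 0.43 ± 0.07, the scaffold nucleoporin Nup37 by 0.74 ± 0.11 and the importin Ipo5 by 0.45 ± 0.08. RNA polymerase subunits gave 5 falls of 27 (18.5%, against 3.23% of all genes), with a median of -0.27. Polr2h, shared by all 3 polymerases, fell by 0.61 ± 0.10.

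Mitochondrial genes showed the same direction, most often in protein import. All 30 measured genes of import and matrix chaperones were lower on average and 8 fell (26.7%; median -0.28). Timm8a1, a chaperone of the mitochondrial intermembrane space, had signals of 9.05, 9.62, 8.98 and 9.17 in CP-Dox tumours, 9.88, 10.12, 10.02 and 10.15 in Dox tumours and 10.18, 10.08, 10.51 and 10.32 in PBS tumours, and fell by 1.07 ± 0.14 (adjusted p = 0.00394). CP-Dox replicate 2 was the highest of its group but below every other tumour. Timm9 fell by 0.91 ± 0.15, with its second probe set at -0.02, Timm50 by 0.69 ± 0.11 and the import pore gene Tomm40 by 0.56 ± 0.08. Mitochondrial ribosomal proteins had 6 falls of 64 (9.38%; median -0.25) and oxidative phosphorylation with the citrate cycle 3 of 67 (4.48%, near the 3.23% of all genes): Cyc1, Idh3a and Atp5b. In limma 0 of 32 proteasome subunits passed (4 at an unadjusted p under 0.05) and 0 of 37 translation factors (12 at an unadjusted p under 0.05, 11 of them lower).

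**Figure D3:**
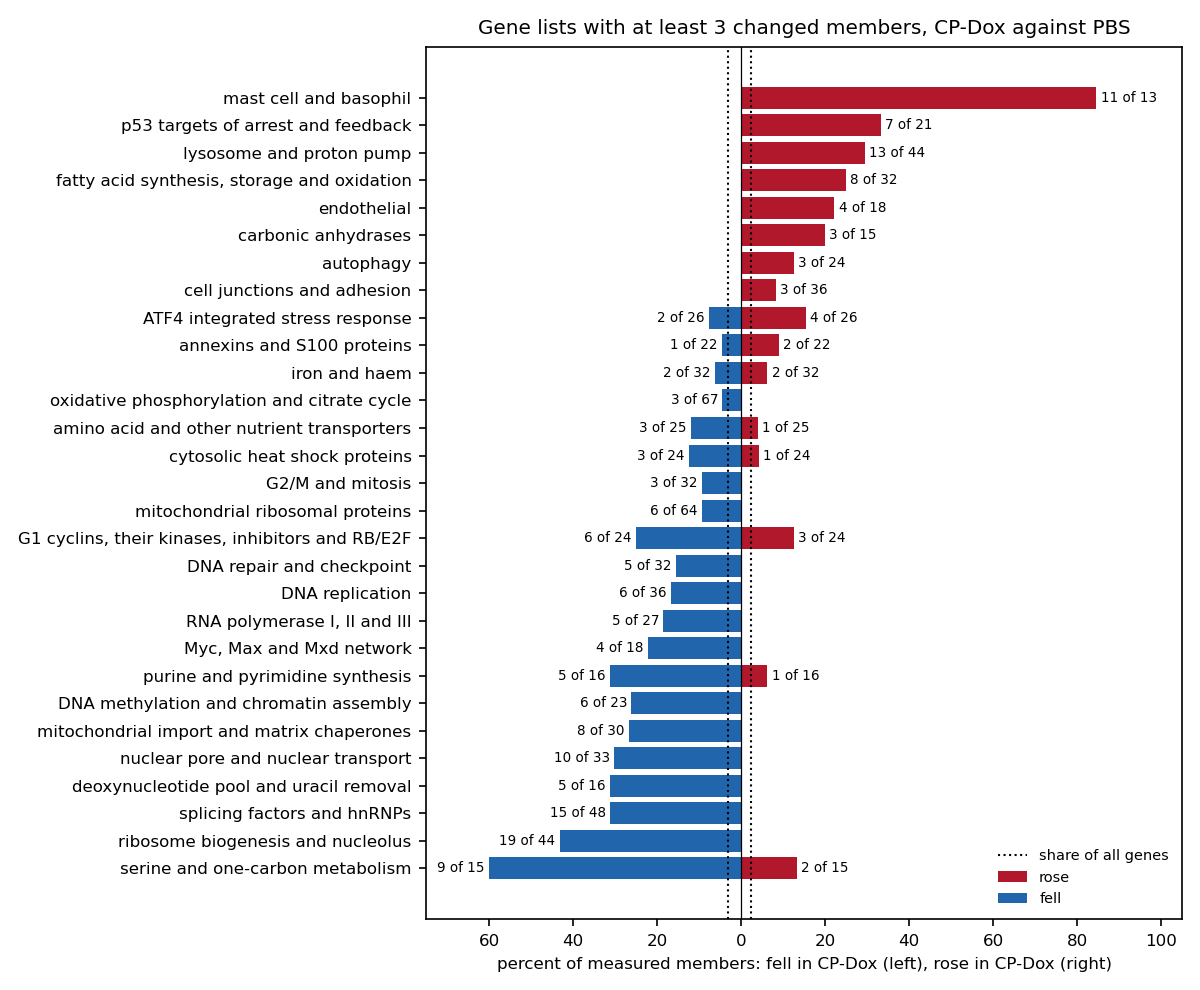
Percent of the measured members of each gene list that fell (bars to the left) or rose (bars to the right) in CP-Dox tumours, for lists with at least 3 changed members, with dotted lines at 3.23% and 2.35%, the shares of all genes that fell and rose. Mast cell markers reach farthest right, with 11 of 13, and serine and one-carbon genes farthest left, with 9 of 15.

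Lysosomal genes moved the other way. Of 44 measured genes of the lysosome and its proton pump, 43 were higher on average, 13 rose (29.5% against 2.35% of all genes) and none fell. The median was 0.37. Without CP-Dox replicate 2, 26 rose, where 9.9% of all genes did. Without replicates 1 and 3 together 0 of 44 passed in limma, where 0.0161% of all genes did (median of the list 0.27). Of the 13, 1 passed without each single array. List means were 0.35, 0.21, 0.52 and 0.41 in CP-Dox tumours, 0.17, 0.08, 0.19 and 0.18 in Dox tumours and 0.02, 0.03, -0.02 and -0.03 in PBS tumours, ordered without overlap. Gla, alpha-galactosidase A, had signals of 9.70, 8.67, 9.73 and 9.68 in CP-Dox tumours, 8.66, 8.18, 8.45 and 9.0 in Dox tumours and 8.42, 8.14, 7.95 and 8.10 in PBS tumours, and rose by 1.29 ± 0.24 (adjusted p = 0.0131). The membrane protein gene Laptm4a rose by 0.52 ± 0.09, acid ceramidase (Asah1) by 0.36 ± 0.07 and the proton pump subunit Atp6v0d1 by 0.37 ± 0.07 (10.84, 10.87, 10.97 and 10.87 in CP-Dox tumours against 10.55, 10.59, 10.43 and 10.49 in PBS tumours). In all, 7 of the 13 genes that rose encode the pump or its accessory protein. Autophagy genes gave 3 rises of 24 (12.5%; median 0.24): Map1lc3b at 0.41 ± 0.09, Uvrag at 0.43 ± 0.08 and Wipi1 at 0.75 ± 0.19.

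The CLEAR element TCACGTGA, bound by the lysosome regulator TFEB and its relatives, was searched on both strands. It contains the E-box CACGTG, which was counted separately. The element stood in 4.29% of windows of the genes that rose (10 of 233), in 0.901% of those of the genes that fell and in 1.53% of all windows, and in 6 of 35 windows of the lysosome list (17.1%). The E-box as such stood in 10.7%, 13.8% and 9.35%. The 3 genes of the list that both rose and hold the element are shown, with the element in capitals.
Gla (chrX:134601151-134601250, minus strand): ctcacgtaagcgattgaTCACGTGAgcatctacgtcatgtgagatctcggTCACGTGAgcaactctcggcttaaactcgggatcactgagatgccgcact
Atp6v0d1 (chr8:105566060-105566159, minus strand): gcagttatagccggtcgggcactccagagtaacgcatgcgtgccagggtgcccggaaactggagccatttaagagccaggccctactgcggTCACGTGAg
Atp6v1a (chr16:44139342-44139441, minus strand): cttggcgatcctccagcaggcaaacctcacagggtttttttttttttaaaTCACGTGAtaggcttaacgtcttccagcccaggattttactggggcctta
Gla has a pair of copies in this stretch. Atp6v1a, a catalytic subunit of the pump, rose by 0.51 ± 0.12 (adjusted p = 0.0359) and was named for its promoter.

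Of 32 measured genes of fatty acid synthesis, storage and oxidation, 8 rose (25.0%, against 2.35% of all genes) and none fell. The median was 0.22, and 1 of the 8 also passed without each single array. Cd36, a fatty acid receptor, had signals of 8.44, 8.38, 9.54 and 9.07 in CP-Dox tumours, 6.95, 7.16, 7.83 and 8.01 in Dox tumours and 7.04, 6.39, 7.43 and 7.51 in PBS tumours, and rose by 1.76 ± 0.33 (3.40-fold, adjusted p = 0.0137). The Dox tumours overlapped with PBS. Cpt1a, which admits fatty acids to mitochondria, rose by 0.75 ± 0.14, the lipid droplet protein gene Plin2 by 0.81 ± 0.17, and the lipases Lipe and Lpl by 0.81 ± 0.17 and 1.67 ± 0.42. Lipe and Lpl are also the 2 of 10 adipocyte markers that rose, and that list's means were 0.38, 0.32, 0.87 and 0.60 in CP-Dox tumours and -0.28 to 0.31 in PBS tumours; the part of fat tissue in these values was not tested. Cholesterol synthesis gave 0 calls of 22 genes in limma (10 at an unadjusted p under 0.05; median -0.44), with CP-Dox list means of -0.76, 0.19, -0.78 and -0.76. Without replicate 2, 13 of these genes fell, where 9.17% of all genes did.

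Stress and nutrient genes had no common direction. Of 26 measured genes of the ATF4 response 4 rose (15.4%) and 2 fell (7.69%), where 2.35% and 3.23% of all genes did, with a median of -0.07. Vldlr, a lipoprotein receptor, had signals of 11.73, 10.44, 11.66 and 11.36 in CP-Dox tumours, 10.43, 10.50, 10.21 and 9.96 in Dox tumours and 9.68, 9.28, 9.48 and 8.96 in PBS tumours. It rose by 1.95 ± 0.26 (3.86-fold, adjusted p = 0.00394), whereas the amino acid carrier Slc7a5 fell by 1.07 ± 0.15 and the pseudokinase Trib3 by 0.85 ± 0.14. Of 24 cytosolic heat shock genes 1 rose (4.17%), the inducible Hspa1a by 0.90 ± 0.15, and 3 fell (12.5%). Among them was Fkbp4, a steroid receptor co-chaperone, which fell by 0.98 ± 0.13, although its second probe set was at -0.01. Slc29a1, which carries nucleosides across the membrane, fell by 0.69 ± 0.09 (9.25, 9.06, 9.18 and 9.02 in CP-Dox tumours against 9.72, 9.83, 9.92 and 9.79 in PBS tumours).

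Of 32 measured genes of iron and haem 2 rose, Lcn2 and Cp, and 2 fell, Tfrc and Alas2 (6.25% each, median 0.03). Over all genes the shares were 2.35% and 3.23%. Of 9 erythroid and platelet markers 1 fell (11.1%). The transferrin receptor Tfrc, which brings iron into dividing cells, had signals of 7.57, 9.33, 7.14 and 8.00 in CP-Dox tumours, 9.06, 9.79, 9.39 and 9.43 in Dox tumours and 10.16, 10.43, 10.26 and 9.58 in PBS tumours. CP-Dox replicate 2 lay within the range of the Dox tumours, and no CP-Dox tumour overlapped with PBS. Tfrc fell by 2.10 ± 0.39 (4.28-fold, adjusted p = 0.0119), the largest fall, and differed by -1.44 without CP-Dox replicates 1 and 3. Alas2, the erythroid enzyme that starts haem synthesis, had signals of 4.94, 5.15, 5.26 and 6.11 in CP-Dox tumours, 5.22, 5.11, 5.07 and 5.20 in Dox tumours and 6.52, 7.15, 6.55 and 7.17 in PBS tumours. Both drug groups were low. Alas2 fell by 1.48 ± 0.24 in CP-Dox tumours (adjusted p = 0.00688), and the beta-globin gene Hbb-b2 by 1.27 ± 0.18, where globin copies can share probes. CP-Dox minus Dox was 0.22 for Alas2 (adjusted p = 0.662) and 0.12 for Hbb-b2 (adjusted p = 0.759).

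Among the 13 marker lists, that of mast cells and basophils had the largest share of rising members. Of 13 measured mast cell and basophil markers 11 rose (84.6%, against 2.35% of all genes), with a median of 1.61. Without CP-Dox replicate 2, 11 rose, where 9.9% of all genes did. The list means were 1.82, 1.10, 1.54 and 1.54 in CP-Dox tumours, 0.05, 0.28, -0.43 and 1.06 in Dox tumours and 0.09, -0.40, 0.31 and -0.01 in PBS tumours. No CP-Dox tumour overlapped with PBS, and Dox replicate 4 alone among the Dox tumours came near the CP-Dox range. Tph1, which starts serotonin synthesis, had signals of 8.51, 7.21, 7.67 and 8.10 in CP-Dox tumours, 5.71, 6.04, 5.41 and 7.0 in Dox tumours and 5.81, 5.09, 5.88 and 5.57 in PBS tumours, and rose by 2.29 ± 0.35 (4.88-fold, adjusted p = 0.00562). Hdc, which makes histamine, rose by 1.73 ± 0.22 (9.21, 8.60, 9.17 and 8.61 in CP-Dox tumours against 7.42, 7.13, 7.2 and 6.91 in PBS tumours).

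The proteases of mast cell granules followed the same pattern. Tpsb2, a tryptase, had signals of 11.01, 10.74, 11.18 and 10.98 in CP-Dox tumours, 8.92, 9.13, 8.53 and 10.33 in Dox tumours and 8.92, 8.35, 9.24 and 9.24 in PBS tumours. It rose by 2.04 ± 0.33 (adjusted p = 0.00702), although its second probe set was at 0.29. The related tryptase Tpsab1 rose by 1.81 ± 0.33, the chymase-like Mcpt4 by 1.85 ± 0.36 and the IgE receptor subunit Fcer1a by 1.87 ± 0.48, and transcripts of close copies such as the tryptases can bind the same probes. Cyp11a1, which starts steroid synthesis and belongs to no marker list, had signals of 8.25, 6.75, 8.04 and 8.19 in CP-Dox tumours, 5.93, 5.89, 5.63 and 7.58 in Dox tumours and 5.93, 5.67, 5.97 and 5.56 in PBS tumours, with Dox replicate 4 again the highest Dox tumour. It rose by 2.02 ± 0.42 (adjusted p = 0.0210). Gnai1, a G protein subunit, rose by 1.83 ± 0.31 and also had its highest Dox value, 6.70, in replicate 4.

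Vessel and neutrophil markers rose in part. Of 18 endothelial markers 4 rose (22.2%, against 2.35% of all genes), with a median of 0.39. List means were 0.38 to 0.59 in CP-Dox tumours and -0.19 to 0.15 in PBS tumours. Plvap, of the diaphragms of leaky vessels, had signals of 9.88, 9.60, 10.13 and 10.05 in CP-Dox tumours, 9.07, 9.27, 9.41 and 9.45 in Dox tumours and 8.76, 8.67, 9.02 and 8.29 in PBS tumours, and rose by 1.23 ± 0.16 (adjusted p = 0.00376). Pecam1 rose by 1.02 ± 0.15, Emcn by 0.86 ± 0.13 and Icam2 by 0.57 ± 0.11. Of 32 angiogenic ligands and receptors 1 rose, Vegfd, and 1 fell, Vegfb (3.12% each), shares near those of all genes. The 11 neutrophil markers had a median of 0.01, and 2 of them rose (18.2%), S100a8 by 2.09 ± 0.50 and Lcn2 by 2.40 ± 0.63. Lcn2, which binds bacterial iron carriers, had signals of 8.30, 6.58, 8.36 and 9.27 in CP-Dox tumours, 6.07, 6.54, 5.76 and 8.57 in Dox tumours and 5.18, 5.71, 6.14 and 5.88 in PBS tumours, high also in Dox replicate 4. In limma 0 of 19 macrophage, 0 of 8 dendritic cell and 0 of 9 B cell markers passed (4, 0 and 1 at an unadjusted p under 0.05).

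Interferon-stimulated genes gave 0 calls of 33 in limma (1 at an unadjusted p under 0.05), and CP-Dox replicate 2 lay opposite to the other CP-Dox tumours. The list means were 1.5, -1.82, 1.49 and 1.46 in CP-Dox tumours, 0.49, -0.61, 0.09 and 0.78 in Dox tumours and -0.34, 0.63, -0.28 and -0.01 in PBS tumours. Mx1, an antiviral GTPase, had 9.53, 5.09, 8.95 and 8.47 in CP-Dox tumours and 6.75, 7.21, 5.79 and 6.18 in PBS tumours. Without CP-Dox replicate 2, 30 of the 33 were called higher, where 9.90% of all genes were. The list median was 0.60 with all arrays and -0.13 without CP-Dox replicates 1 and 3. Without it, 13 of 20 complement and Fc receptor genes were called higher, against 1 with all arrays, and 8 of 17 antigen presentation genes, against 0 in limma with all arrays (0 at an unadjusted p under 0.05).

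**Figure D4:**
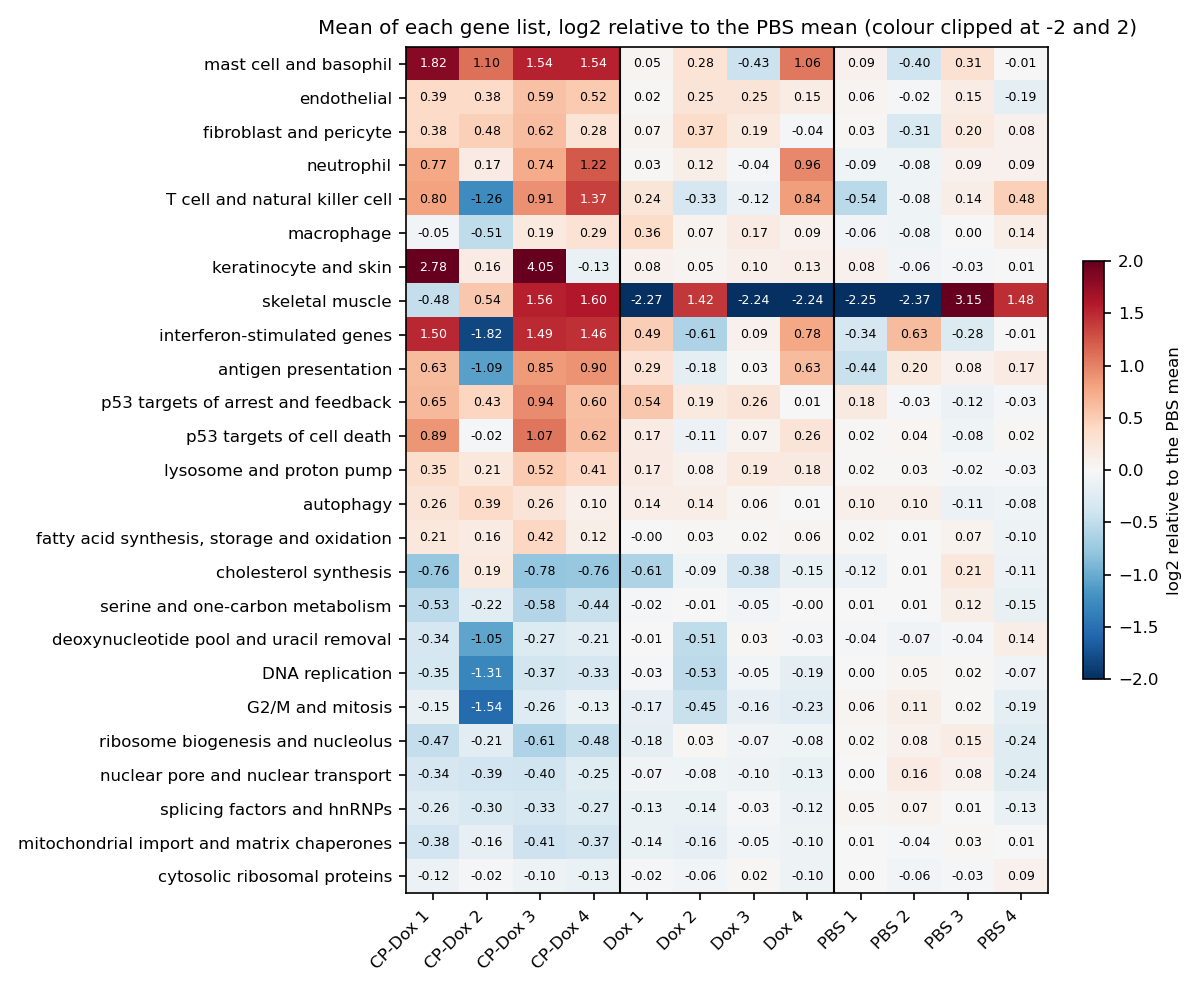
Mean of each gene list in each of the 12 tumours (columns, CP-Dox at the left, then Dox, then PBS), as the log2 difference from the PBS mean, printed in the cells and coloured from -2 to 2. CP-Dox replicate 2 stands out in the interferon list at -1.82, and keratinocyte markers are high in CP-Dox replicates 1 and 3 alone, at 2.78 and 4.05.

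Some of the largest single changes lay outside these themes. Anxa8, an annexin of epithelia, had signals of 9.16, 8.51, 10.38 and 8.40 in CP-Dox tumours, 6.17, 6.85, 6.07 and 7.05 in Dox tumours and 5.64, 5.20, 5.70 and 6.82 in PBS tumours. It rose by 3.27 ± 0.45 (9.65-fold, adjusted p = 0.00419), the largest rise, its second probe set gave 3.22, and without CP-Dox replicates 1 and 3, the tumours with high keratinocyte markers, the difference was 2.61. Cdh1, E-cadherin, was also highest in those tumours, at 7.03 and 7.88, and stood at 1.25 ± 0.33 with all arrays (adjusted p = 0.0483) and 0.60 without them. Car4, a membrane-bound carbonic anhydrase, rose by 2.19 ± 0.40 (8.60, 6.95, 7.88 and 8.40 in CP-Dox tumours against 6.35, 5.77, 5.56 and 5.41 in PBS tumours), and 2 of the other 14 carbonic anhydrase genes rose, Car5b by 0.71 ± 0.10 and Car8 by 0.97 ± 0.22, with its second probe set at -0.38.

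Mtm1, a phosphatase of endosomal phosphoinositides, had signals of 9.37, 10.20, 9.0 and 9.61 in CP-Dox tumours, 10.76, 11.05, 11.21 and 10.90 in Dox tumours and 11.57, 11.47, 11.43 and 11.53 in PBS tumours. The 3 groups did not overlap. Mtm1 fell by 1.95 ± 0.20 (3.88-fold, adjusted p = 0.00259) and was lower than in Dox tumours by -1.44 ± 0.20 (adjusted p = 0.0392), but 1 of its 2 other probe sets had the opposite sign. Npl, a sialic acid lyase gene, fell by 1.46 ± 0.32 and the unnamed transcript 2010204K13Rik by 1.28 ± 0.15. Npepl1, an aminopeptidase-like gene, had 8.70, 8.83, 8.78 and 8.76 in CP-Dox tumours, 9.08, 9.08, 9.22 and 8.98 in Dox tumours and 9.43, 9.47, 9.40 and 9.48 in PBS tumours, a fall of 0.68 ± 0.07 (adjusted p = 0.00259). The AAA ATPase gene Ruvbl2 fell by 0.66 ± 0.08. Glipr1, a secreted-protein gene known as a p53 target, had 12.34, 11.83, 12.20 and 11.98 in CP-Dox tumours, 11.44, 11.37, 11.46 and 11.43 in Dox tumours and 11.10, 10.55, 10.63 and 10.95 in PBS tumours, a rise of 1.28 ± 0.14 (adjusted p = 0.00259).

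Free doxorubicin was set against the same PBS tumours. No gene passed for Dox against PBS in limma (558 at an unadjusted p under 0.05), and both comparisons share the 4 PBS arrays. Among the genes that rose in CP-Dox tumours the median of Dox minus PBS was 0.23, against 0.61 for CP-Dox minus PBS, and among those that fell it was -0.18, against -0.56. These genes were chosen for their CP-Dox minus PBS difference, so that the smaller Dox values describe them and are no comparison of the drugs. Tested directly, CP-Dox and Dox tumours differed for 28 genes (0.226%; 1991 at an unadjusted p under 0.05), 7 higher and 21 lower in CP-Dox tumours, and 27 of the 28 were also changed against PBS. The count rested on single arrays: it was 1150 without CP-Dox replicate 2, between 1 and 18 without any other single CP-Dox or Dox array, and 0 when the CP-Dox and Dox arrays were fitted alone. Beside the genes already given, the highest differences from Dox included Malat1, a long noncoding RNA of nuclear speckles, with 8.32, 8.02, 8.28 and 7.53 in CP-Dox tumours, 6.14, 6.52, 5.89 and 6.47 in Dox tumours and 6.19, 6.46, 6.02 and 7.27 in PBS tumours. Malat1 was higher than in Dox tumours by 1.78 (adjusted p = 0.0413) and rose by 1.55 ± 0.27 against PBS. A4galt, a glycolipid galactosyltransferase, was higher than in Dox tumours by 1.79 (adjusted p = 0.0499), Ak1, an adenylate kinase, by 0.94 and Ubap1, a sorting protein of endosomes, by 0.46. For Ak1 the second probe set was at -0.18 against PBS. Aen, Slc19a1, Kif23, Ipo5, Wipi1, Gnai1 and Malat1 have several further probe sets, at least 1 of which differed far less from PBS than the one used.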

How the data were processed

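Gene expression was measured on Affymetrix arrays, per the labels' protocols, hybridised with biotin-labelled cRNA, 1 array per tumour. The values deposited by the authors are log2 signals per probe set, made with RMA and Partek per the submitters' processing notes; the sources used here name no versions or parameters. RMA normalizes between arrays and pulls large differences of dim probe sets towards 0. The precision is limited by the number of arrays.

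Of 22690 probe sets, 64 controls, 691 with several symbols and 1555 with none were left out. The other 20380 gave 12393 genes, 4956 of them with more than 1 probe set, where the 1 with the highest mean over 12 arrays was kept. Symbols come from GEO's platform annotation.

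CP-Dox, Dox and PBS (4 arrays each) were fitted in 1 model with limma 3.58.1 in R 4.3.3, with two-sided moderated tests and Benjamini-Hochberg adjustment over all genes. Tables and figures used Python 3.11.15, pandas 2.3.3 and matplotlib 3.10.9. The fit was checked on simulated data with independent noise for each gene. Such data hold no tumour that stands apart across many genes, so that the check does not cover that case. Genes named are the 15 largest rises and 15 largest falls without overlap between groups, the 10 lowest p, the members of each list with changes that had the lowest p (4 at most), and up to 6 in each direction that also differ from Dox, besides genes fixed for each list. Members and lists (64, with 1581 of 1776 genes measured) were chosen with earlier results of these data known. Promoters are RefSeq windows on GRCm38.p6. Alternatives covered normalization, probe set choice, filter, variance model, array weights, arrays fitted, a replicate block and left-out arrays.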

Additional observations from a re-analysis of the deposited data

Results flagged for a closer look

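In 19 of 236 groups of 4 values, 1 tumour lay so far from the other 3 that its gap to the nearest was over Dixon's critical share of the whole range, which chance passes in about 1 in 20 such groups, and in 15 of the 19 that tumour was CP-Dox replicate 2. Its log2 signals stood apart for Cyp11a1 (6.75), Fcer1a (8.42), Ccne2 (6.06), Top2a (8.96) and the drug efflux gene Abcb1b (8.23), all lower than in the other CP-Dox tumours. Its list means relative to PBS stood apart on the low side for deoxynucleotide genes (-1.05), DNA replication (-1.31), G2/M and mitosis (-1.54), DNA methylation and chromatin assembly (-0.80), interferon-stimulated genes (-1.82) and antigen presentation (-1.09). They stood apart on the high side for mitochondrial import (-0.16), cytosolic heat shock proteins (0.20), cholesterol synthesis (0.19) and TGF-beta and BMP signalling (0.44). CP-Dox replicate 4 stood apart for Ruvbl2 (10.03). PBS replicate 4 stood apart for deoxynucleotide genes (0.14), RNA polymerase subunits (-0.12) and collagens and stromal matrix (-0.36).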

How the results depend on the processing

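The count of genes changed in CP-Dox against PBS tumours (691; 291 higher and 400 lower) stayed within 1.5 times under a further quantile normalization (760), centring on the median (719), the mean of the probe sets (712), a mean trend with robust variance (662), the probe set with the largest variance (585) and without the dimmest 40% of genes (751). It was 2665 (1306 higher, 1359 lower) with array weights, 198 (85 and 113) with the compared groups alone, 143 (50 and 93) at an adjusted p under 0.01, 330 (153 and 177) with a change of at least 1.5-fold, and 2 (0 and 2) without CP-Dox replicates 1 and 3 together. Array weights kept all 12 arrays and gave CP-Dox replicate 2 the lowest weight, 0.232, against 0.518 to 2.145 for the others. The other settings of that sentence used fewer arrays or stricter thresholds. Beyond this the cause of these shifts was not tested. Leaving out 1 array at a time gave 214 to 2363 genes, 73 to 1227 higher and 141 to 1136 lower. The count moved by over 1.5 times without CP-Dox replicate 1 (246), 2 (2363), 3 (214) and 4 (412) and without PBS replicate 1 (396) and 3 (272), and the higher count without PBS replicate 4 (177). For CP-Dox against Dox (28 genes) the count was 0 with those arrays alone and 1 to 1150 with 1 array left out. With the replicate number as a block the counts were 995 (446 higher, 549 lower) against PBS and 8 against Dox. Deviations of same-numbered CP-Dox and PBS tumours correlated at 0.178, 0.024, 0.134 and 0.354, not all above 0.1, so that the numbers were not taken to pair the tumours. Of 154 named genes that changed, 150 kept their call under the block, 89 with the compared groups alone and 2 without CP-Dox replicates 1 and 3. No named gene that passed in any of these fits had the opposite sign there. Of 64 list medians 16 changed sign under at least 1 alternative. Without CP-Dox replicates 1 and 3 together 7 did, among them interferon-stimulated genes (-0.13, against 0.60), antigen presentation (-0.04, against 0.30), chemokines (-0.01, against 0.25) and T and natural killer cell markers (-0.01, against 0.29).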
